A study of Mus musculus with 6 samples.

Results

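The nuclear genes that encode the subunits of the mitochondrial respiratory chain were followed in mouse osteoblasts exposed to dexamethasone and to vesicles from endothelial progenitor cells. They were chosen by gene name alone, as the Nduf genes of series a, b, c, s and v that carry a number, Sdha to Sdhd, every name beginning with Uqcr, Cox4 to Cox8 and every name beginning with Atp5, and 2 names with the pseudogene mark -ps were left out. This gave 79 of the 21686 genes in the table, of which 35 were assigned to complex I, 4 to complex II, 8 to complex III, 16 to complex IV and 16 to complex V, the ATP synthase. Ndufa4 and Ndufa4l2 were counted with complex IV, since Ndufa4 is now known as a cytochrome c oxidase subunit.

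The cells were MC3T3-E1 Subclone 14, a mouse preosteoblast line grown from 1 clone, and each of 3 groups was sequenced in 2 libraries. Control cells received 100 µL of PBS, the dexamethasone group received 10 µM of this synthetic glucocorticoid, and the last group received 10 µM dexamethasone with 100 µg of EPC-EVs (EPCs-exo in the labels), all of them for 72 hours. The vesicle dose is the one in the labels, and the study's text does not give the same dose throughout. EPC-EVs are extracellular vesicles shed by bone marrow-derived endothelial progenitor cells (EPCs). No group received vesicles alone, and the 2 samples of a group are described as biological replicates without a word on separate cultures, so the p-values measure the spread between these samples, which may be technical.

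The libraries held 6126888 and 5146760 counts in control, 6583735 and 6575094 with dexamethasone and 12864009 and 13182014 with dexamethasone and EPC-EVs. A count of 0 therefore allows up to 3 counts, or 0.228 to 0.583 CPM (counts scaled to a common library size), for counting error only. The mitochondrially encoded genes took 5.55% to 8.62% of the counts in the 4 libraries without vesicles and 0.465% and 0.727% in the 2 libraries with them. Of the osteoblast markers, Runx2, Col1a1, Col1a2, Spp1 and Sparc were abundant, whereas Alpl, Bglap, Bglap2 and Ibsp stayed at 6.52 CPM or less in every library, and all 10 summed to 15959.6 to 17487 CPM without vesicles and 28977 and 22979 CPM with them. Col1a1, Col1a2 and Sparc were higher with vesicles, whereas Spp1 was at 10336 to 11379.9 CPM without them and at 6051 and 4328 CPM with them. The 7 endothelial markers measured summed to 365 to 419.9 CPM without vesicles and 288 and 238 CPM with them, nearly all Cd34, while Pecam1, Cdh5, Tek, Emcn and Prom1 were at 1.62 CPM or less, and the sum of the 6 leukocyte markers measured was 11.8 to 19 CPM without vesicles and 18.8 and 53.2 CPM with them. The 5 pericyte and mural markers measured summed to 584 to 767 CPM in the 4 libraries without vesicles and to 3398 and 3421 CPM in the 2 libraries with them, mainly Acta2 and Pdgfrb, while Myh11 stayed at 0.884 CPM or less and Rgs5 lay between 14.01 and 30.04 CPM without vesicles and at 0.314 and 0.386 CPM with them. The part of these differences in the results below was not tested.

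The respiratory chain passes electrons from NADH (complex I) and succinate (complex II) through ubiquinone, complex III and cytochrome c to oxygen at complex IV, and pumps protons across the inner mitochondrial membrane. The ATP synthase lets these protons flow back through its membrane ring and stalk and uses the energy to make ATP in its F1 head. Most subunits come from nuclear genes and are imported, while a small core of subunits of complexes I, III, IV and V is made inside the mitochondrion. In bone, osteoblasts are known to draw on both glycolysis and oxidative phosphorylation as they mature.

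Most of these genes were expressed in every group. Averaged over the libraries, 8 of the 79 genes exceeded 100 CPM, 60 lay between 10 and 100 CPM and 11 were under 10 CPM. Per length, as the deposited FPKM (fragments scaled to gene length and library size), the median gene stood at 10.8 and 10.5 in control, 13.6 and 12.4 with dexamethasone and 20.6 and 19.99 with dexamethasone and EPC-EVs. Summed over the 79 genes, the share of all counts was 0.319% and 0.298% in control, 0.366% and 0.351% with dexamethasone and 0.544% and 0.488% with both. Leaving the mitochondrially encoded genes out of the totals gave 0.345% and 0.326%, 0.387% and 0.373%, and 0.546% and 0.491%, so the vesicle libraries were highest on both scales. In these bulk samples, fewer cells of a kind and less RNA per cell cannot be told apart. Cox7a1, Cox7b2, Ndufa4l2 and Cox6a2, paralogues known from muscle, testis or hypoxic cells, were nearly silent in all 6 libraries, with at most 1.6 CPM. The partners Cox4i2, Cox6b2, Cox8b and Cox8c were not analysed here.

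**Figure D1:**
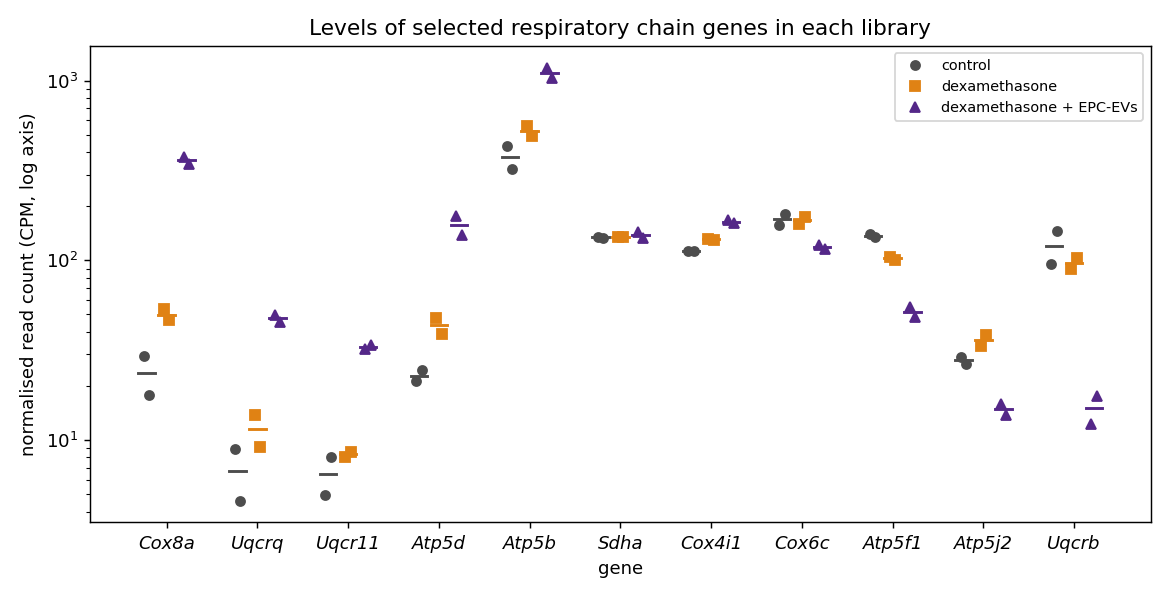
Normalised read count in CPM on a log axis for 11 respiratory chain genes, with 1 point per library and a bar at the mean of the 2 libraries of each group. Cox8a, Uqcrq, Uqcr11, Atp5d and Atp5b were highest with dexamethasone and EPC-EVs, Sdha lay between 133 and 143 CPM throughout, and Atp5f1, Atp5j2, Cox6c and Uqcrb were lowest with EPC-EVs. Heights compare libraries for 1 gene, not genes with each other.

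The first comparison asked what dexamethasone alone did. No nuclear respiratory chain gene passed the test: of 75 genes tested by edgeR's quasi-likelihood test, 0 were called at an adjusted p under 0.05, beside 0.0544% of all 12879 genes tested (0.0155% higher and 0.0388% lower). DESeq2 also called 0 of them, beside 0.66% of all 19711 genes. The limma test on the FPKM values called 0 of all 12879 genes, so its 0 says nothing particular to the respiratory chain. At an unadjusted p under 0.05 there were 10, beside 10.9% of all genes, with 8 higher (Ndufa3, Ndufb4, Cox6a1, Cox6b1, Cox8a, Atp5b, Atp5d and Atp5g1) and 2 lower (Uqcrh and Atp5f1). In 32 genes both dexamethasone libraries lay above both control libraries and in 8 below, beside 22.6% and 21.3% of all genes. The median log2 fold change over these genes was 0.21, beside 0.01 over all genes tested. It was 0.16 in complex I, 0.21 in complex II, 0.20 in complex III, 0.25 in complex IV and 0.31 in complex V. With GC and length corrected the median was 0.056 over these genes and -0.055 in complex III. Of 11 mitochondrially encoded subunits tested, 2 were called lower with dexamethasone alone and are named after their values were seen, mt-Nd2 (log2 fold change -1.13 ± 0.14, adjusted p = 0.0309) and mt-Cytb (log2 fold change -1.18 ± 0.12, adjusted p = 0.0132), at a median of -0.80, and 2 also with GC and length corrected (median -0.50).

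Atp5b, the catalytic beta subunit of the ATP synthase head, had 430.2 and 324 CPM in control and 559.7 and 489 CPM with dexamethasone (log2 fold change 0.47 ± 0.17, adjusted p = 0.371, with the standard error after ±). Cox8a, a small subunit of complex IV, had 29.2 and 17.8 CPM and then 53.6 and 46.3 CPM (log2 fold change 1.08 ± 0.29, adjusted p = 0.291). Atp5f1, the b subunit of the peripheral stalk, had 139 and 135 CPM and then 104 and 101 CPM (log2 fold change -0.43 ± 0.17, adjusted p = 0.41). The 2 libraries of each group did not overlap for any of these 3 genes, but none passed the adjusted test. Without control replicate 1, edgeR called 10 of these genes, 8 higher and 2 lower (13.2%, beside 16.05% of all genes). That fit has 1 control library, which is assumed to vary like the dexamethasone pair, although the control pair differed more (chi-square per degree of freedom of 16.6 against 7.17). The pair with dexamethasone and EPC-EVs, which was sequenced deeper, had the largest value, 20.1. The control libraries lay far apart for some weakly expressed genes, as with Uqcrfs1, the Rieske iron-sulfur protein, at 11.8 and 2.6 CPM, and Ndufs8 at 13.5 and 3.2 CPM.

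The comparison of dexamethasone with EPC-EVs against dexamethasone asked what the vesicles added. Of 76 genes tested, edgeR called 42 (55.3%), beside 39.8% of all 13556 genes. Higher calls prevailed, with 34 genes higher and 8 lower, beside 20.9% and 18.9% of all genes. At an unadjusted p under 0.05 there were 48, beside 48.4%. In 47 genes both vesicle libraries lay above both dexamethasone libraries, and in 18 below, beside 37.3% and 35.1% of all genes. The median log2 fold change was 0.59, beside 0.01 over all genes tested. By complex, 12 genes rose and 2 fell among 35 of complex I, 2 rose among 4 of complex II, 6 rose and 1 fell among 8 of complex III, 5 rose and 1 fell among 13 tested of complex IV, and 9 rose and 4 fell among 16 of complex V. The medians were 0.50, 0.67, 1.12, 0.55 and 0.83 in that order. With GC and length corrected they were 0.31, 0.61, 0.80, 0.89 and 0.64. In complex I 10 genes then rose and 4 fell, 2 rose in complex II, and 4 rose and 1 fell in complex III. In complex IV 7 rose and 2 fell, and in complex V 10 rose and 5 fell. Over all 13556 genes, 2217 rose and 2051 fell with this correction. Among the 42 calls, 22 of the 34 rises and 5 of the 8 falls kept their call in each of the 14 other normalizations, filters, fits, count tools and left-out libraries that tested them, the removal of a GC trend included (Ndufb11 was tested in 13).

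**Figure D2:**
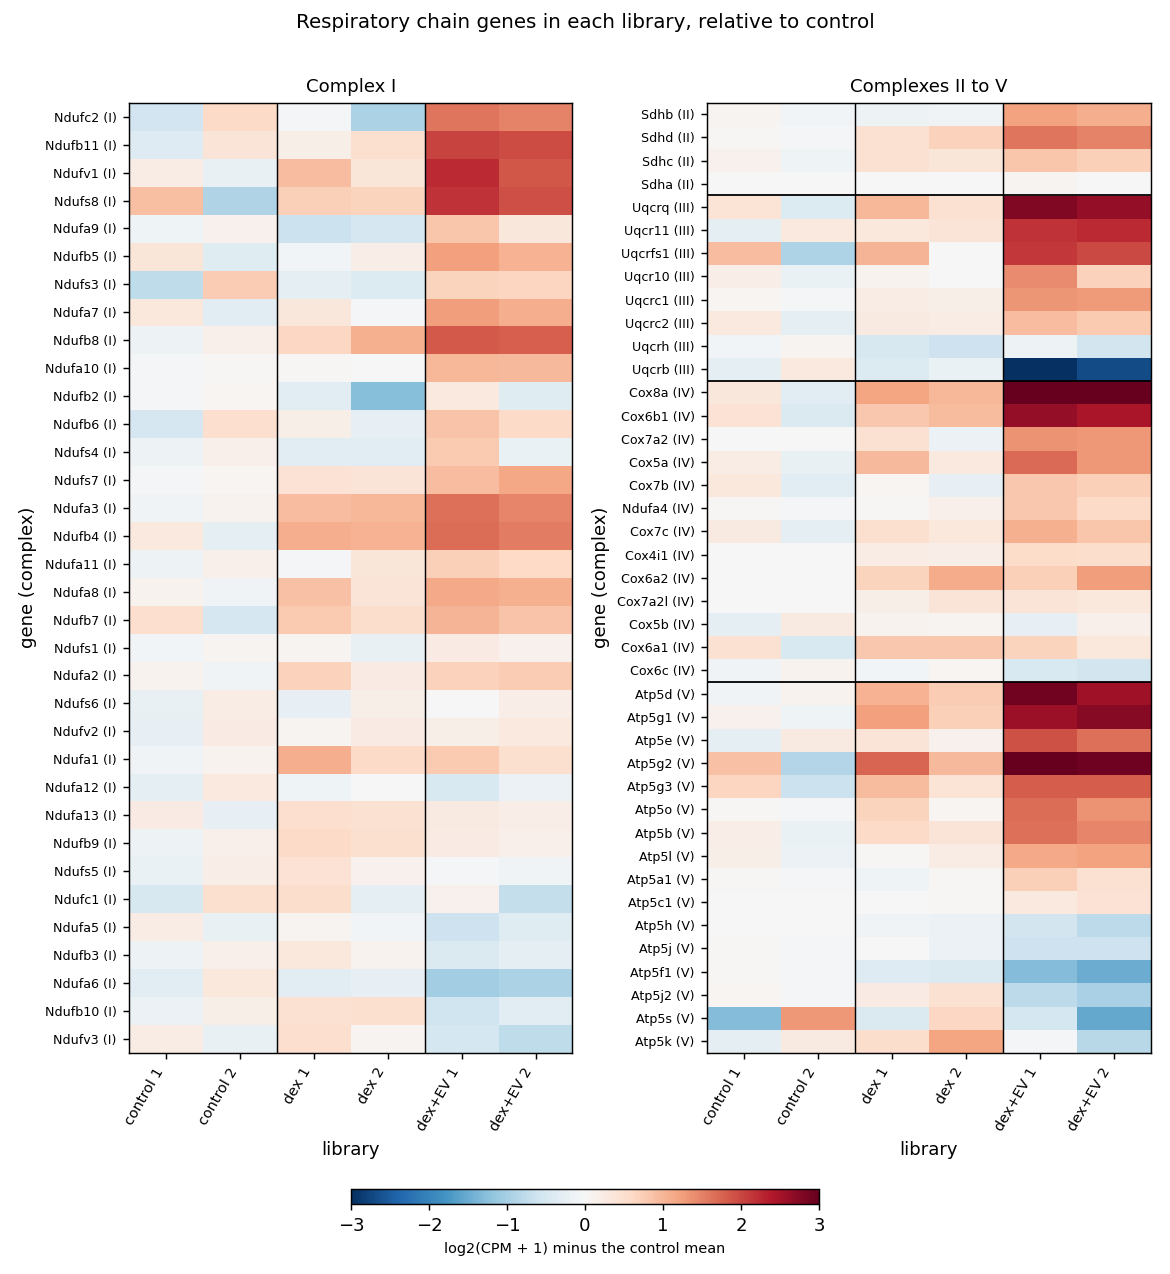
The respiratory chain genes tested, 75 of 76, with 1 row per gene and 1 column per library, coloured by log2(CPM + 1) minus the control mean, with colours held at -3 and 3. Genes are ordered within each complex by their fold change with EPC-EVs. The 2 columns on the right of each panel, with dexamethasone and EPC-EVs, are mostly red, as most called genes were higher, and blue for a smaller set led by Uqcrb.

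**Figure D3:**
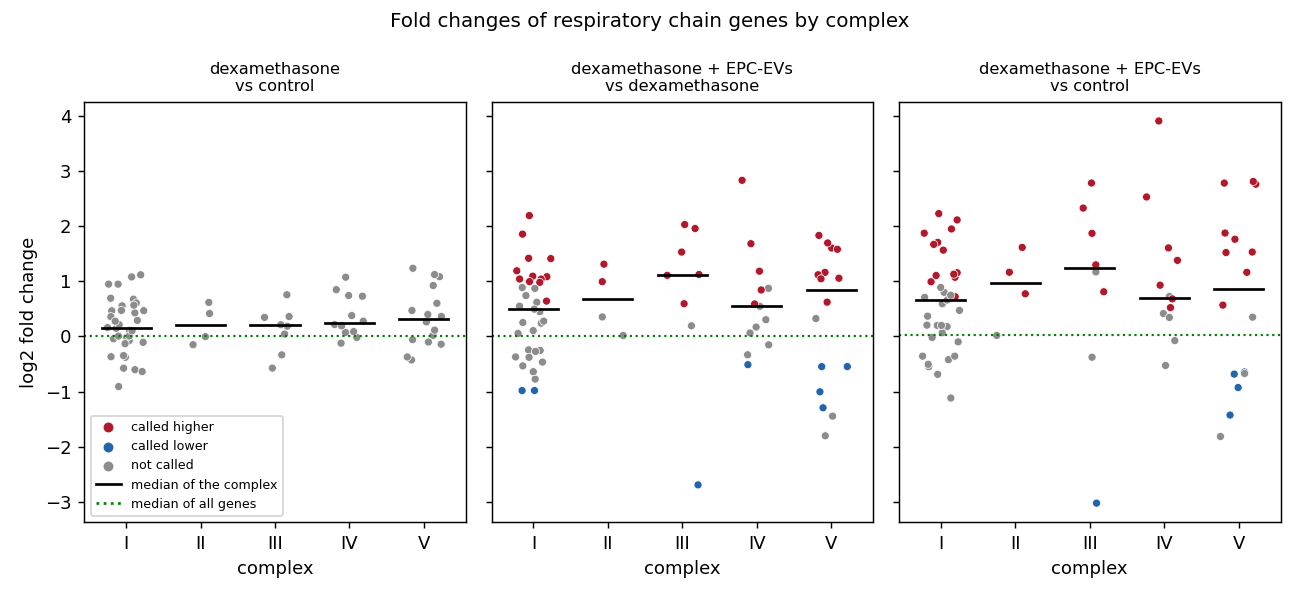
Log2 fold change of each gene tested, by complex, in the 3 comparisons, with a bar at the median of each complex and a dotted line at the median of all genes tested. The medians of all 5 complexes lay above the dotted line in every panel, and called genes appear in the panels with EPC-EVs only. The comparisons share libraries and are not independent.

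In complex I, most subunits of the electron path rose. Of the 7 core subunits of the peripheral arm, 5 were called higher. Ndufv1, which binds NADH and flavin and takes up the electrons, had 14.1 and 10.2 CPM in control, 23.9 and 15.8 CPM with dexamethasone and 60.8 and 46.6 CPM with dexamethasone and EPC-EVs (log2 fold change 1.42 ± 0.25, adjusted p = 0.000975 against dexamethasone). Ndufs8, which carries iron-sulfur clusters, had in the same order of groups 13.5 and 3.2, 11.8 and 11.5, and 34 and 28.8 CPM (log2 fold change 1.41 ± 0.26, adjusted p = 0.0012). Both vesicle libraries were above the other 4 for both genes.

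Other core subunits were less firm. Ndufs3 had 7.56 and 23.6 CPM in control, 11 and 9.87 with dexamethasone and 22.1 and 21.5 with EPC-EVs (log2 fold change 1.04 ± 0.29, adjusted p = 0.0137), so that one control library was above both vesicle libraries, and it was not called without dexamethasone replicate 2 (adjusted p = 0.0689) or without dexamethasone + EPC-EVs replicate 1 (adjusted p = 0.0563). Nor was Ndufs3 called with all 6 libraries in 1 fit (adjusted p = 0.104) or with GC and length corrected (0.67, adjusted p = 0.0985). Ndufs7, next to the ubiquinone site, had 14.3 and 15.8, 20.8 and 19.9, and 29.3 and 34.9 CPM (log2 fold change 0.64 ± 0.23, adjusted p = 0.047). Its call was lost in 11 of the alternatives, among them each left-out library (adjusted p of 0.114 and 0.15 without dexamethasone replicates 1 and 2, and 0.0511 and 0.236 without those of dexamethasone + EPC-EVs), and its sign turned to -0.23 once a trend on GC content was removed. Ndufs1, which holds iron-sulfur clusters, had 31.9 and 35.6, 35.6 and 28.6, and 40.3 and 37.2 CPM (log2 fold change 0.25 ± 0.21, adjusted p = 0.376). Ndufv2, its iron-sulfur partner in the NADH module, had 33 and 47.1, 41.5 and 47.3, and 44.6 and 48.9 CPM (log2 fold change 0.06 ± 0.19, adjusted p = 0.844), and the groups overlapped, but it was called higher with GC corrected (0.73, adjusted p = 0.0123).

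Among the accessory subunits, which build the frame around the core, 7 were called higher and 2 lower, beside 20.9% and 18.9% of all genes. They are the genes of complex I, 35 in all, other than the 7 core ones. Ndufc2, a membrane arm subunit (chr7:97400003-97407802, plus strand, GRCm38), was one of the 5 largest rises, with 3.94 and 9.81 CPM in control, 6.04 and 2.8 with dexamethasone and 21.4 and 19.7 with EPC-EVs (log2 fold change 2.19 ± 0.40, adjusted p = 0.0012), and 2.86 without dexamethasone replicate 1. Ndufb11, also of the membrane arm and among several members singled out here after their values were seen, had 2.14 and 4.4, 3.68 and 4.71, and 15.9 and 15 CPM (log2 fold change 1.86 ± 0.38, adjusted p = 0.00257). Ndufa9 (log2 fold change 1.19 ± 0.23, adjusted p = 0.00168) and Ndufa10 (log2 fold change 0.98 ± 0.19, adjusted p = 0.00173) rose as well, and for Ndufa9 the dexamethasone libraries, at 21.6 and 24 CPM, lay under control at 31.4 and 37.8 CPM before the vesicle libraries reached 61.6 and 44.2 CPM. Ndufb5 (log2 fold change 1.09 ± 0.23, adjusted p = 0.00309) and Ndufa7 (log2 fold change 1.04 ± 0.23, adjusted p = 0.00413) were also called, as was Ndufb8 (adjusted p = 0.0187). Ndufa7 lost its call without dexamethasone replicate 2 (0.0516), and Ndufb8 without dexamethasone replicate 1 (0.0977) or dexamethasone + EPC-EVs replicate 1 (0.0658). With GC and length corrected neither was called (0.56, adjusted p = 0.0734 for Ndufa7 and 0.49, adjusted p = 0.24 for Ndufb8), and Ndufb8 was not called with all 6 libraries in 1 fit (0.0513). The 21 genes of complex I that were not called lay between a log2 fold change of -0.77 ± 0.32 for Ndufa6 and 0.89 ± 0.59 for Ndufb2. Ndufc2 shares its locus with Gm16053 on the same strand, so its counts are less certain.

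Ndufv3 and Ndufb10 went the other way. Ndufv3, an accessory subunit of the NADH module (chr17:31520115-31531331, plus strand), had 79.2 and 58.5 CPM in control, 97.5 and 71.7 with dexamethasone and 47.1 and 39.6 with dexamethasone and EPC-EVs (log2 fold change -0.98 ± 0.20, adjusted p = 0.00205). Ndufb10, of the membrane arm (chr17:24722060-24724478, minus strand), had 26.8 and 34.6, 42.4 and 43, and 19.6 and 24.1 CPM (log2 fold change -0.98 ± 0.22, adjusted p = 0.00438). The vesicle libraries were lowest of all 6 for both genes. Against control the changes did not pass the test, at -0.69 ± 0.24 for Ndufv3 (adjusted p = 0.0559) and -0.51 ± 0.30 for Ndufb10 (adjusted p = 0.215). Ndufv3 was called against control without control replicate 2 (adjusted p = 0.0195), with upper-quartile normalization, a mean of at least 10 CPM or all 6 libraries in 1 fit (0.0368 to 0.0413). With GC and length corrected both genes were called, Ndufv3 at -1.61 (adjusted p = 0.000766) and Ndufb10 at -1.37 (0.0158). The FPKM ratio of Ndufv3 to Ndufv1, which places both genes on a per-length scale, was 5.67 and 5.8 in control, 4.14 and 4.61 with dexamethasone and 0.785 and 0.86 with EPC-EVs.

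Complex II, succinate dehydrogenase, is also an enzyme of the tricarboxylic acid cycle and is built entirely from nuclear genes. Sdha, the flavoprotein that oxidizes succinate, had 135 and 133 CPM in control, 134 and 134 with dexamethasone and 143 and 133 with EPC-EVs (log2 fold change 0.02 ± 0.14, adjusted p = 0.931), and the groups overlapped. Sdhb, the iron-sulfur subunit, had 18.6 and 16.6, 15.6 and 16.2, and 41.8 and 38.3 CPM (log2 fold change 1.31 ± 0.23, adjusted p = 0.00086). The membrane anchors Sdhc and Sdhd bind ubiquinone. Sdhc had 33.5 and 28, 42.7 and 39.8, and 55.4 and 51.4 CPM (log2 fold change 0.35 ± 0.19, adjusted p = 0.153), and Sdhd had 11 and 10.4, 15.2 and 17.8, and 34.8 and 31.9 CPM (log2 fold change 0.99 ± 0.24, adjusted p = 0.00651). For Sdhb, Sdhc and Sdhd the vesicle libraries were above the other 4, and for Sdha they were not.

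In complex III 6 of 8 genes rose and 1 fell. The Rieske protein Uqcrfs1, which hands electrons to cytochrome c1, had 11.8 and 2.6 CPM in control, 12.8 and 5.75 with dexamethasone and 28.4 and 25.9 with EPC-EVs (log2 fold change 1.53 ± 0.35, adjusted p = 0.00504), and was not called with all 6 libraries in 1 fit (adjusted p = 0.0576). Its log2 fold change was 2.23 without dexamethasone replicate 1 and 1.07 without dexamethasone replicate 2. The core proteins Uqcrc1 (45 and 41, 49.9 and 48.3, and 109 and 106 CPM, log2 fold change 1.11 ± 0.16, adjusted p = 0.000222) and Uqcrc2 (59.5 and 39.2, 58.6 and 56.3, and 92 and 83.7 CPM, log2 fold change 0.59 ± 0.16, adjusted p = 0.012) also rose. Uqcrc2 was not called without dexamethasone replicate 1 (adjusted p = 0.0621) or 2 (adjusted p = 0.0868), or with all 6 libraries in 1 fit (0.0571), and Uqcrc1 was not called with GC and length corrected (0.43, adjusted p = 0.0562). In all 3 genes both vesicle libraries lay above the rest.

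The small subunits of complex III diverged. Uqcrq (chr11:53427922-53430831, minus strand) had 8.87 and 4.6 CPM in control, 13.8 and 9.13 with dexamethasone and 49.9 and 45.3 with EPC-EVs (log2 fold change 2.03 ± 0.26, adjusted p = 0.000107). Uqcr11 (chr10:80402997-80406830, minus strand) had 4.93 and 8.01, 8.1 and 8.54, and 32 and 33.6 CPM (log2 fold change 1.96 ± 0.27, adjusted p = 0.000175). Uqcrb (chr13:66900617-66905378, minus strand), a matrix-side subunit near the ubiquinone site, had 95.9 and 146, 88.9 and 103, and 12.3 and 17.7 CPM (log2 fold change -2.70 ± 0.22, adjusted p = 6.16e-06), the largest fall among the genes followed here. The vesicle libraries were thus highest for Uqcrq and Uqcr11 and lowest for Uqcrb. On the per-length scale the FPKM ratio of Uqcrb to Uqcrq was 22.6 and 66.1 in control, 13.4 and 23.6 with dexamethasone, and 0.516 and 0.815 with EPC-EVs. Uqcrh, the acidic hinge protein, had 39.1 and 44.6, 29.7 and 26.7, and 37.2 and 28.2 CPM (log2 fold change 0.19 ± 0.23, adjusted p = 0.54). Uqcr10 had 8.21 and 6.01, 7.66 and 7.07, and 20.6 and 12 CPM (log2 fold change 1.12 ± 0.37, adjusted p = 0.0325), and was not called without dexamethasone replicate 1 (adjusted p = 0.102), dexamethasone replicate 2 (0.137) or dexamethasone + EPC-EVs replicate 1 (0.325). Nor was Uqcr10 called with GC and length corrected (0.62, adjusted p = 0.213), by DESeq2 (0.0524) or with all 6 libraries in 1 fit (0.0658).

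In complex IV, Cox8a (chr19:7215153-7217616, minus strand) gave the largest rise of all the genes followed. It had 29.2 and 17.8 CPM in control, 53.6 and 46.3 CPM with dexamethasone and 377 and 345 CPM with dexamethasone and EPC-EVs (log2 fold change 2.84 ± 0.15, adjusted p = 2.49e-07). No library of one group overlapped another, and its mean FPKM went from 42.5 in control and 94.5 with dexamethasone to 654 with EPC-EVs, while that of Uqcrb went from 135 and 113 to 16.9. The coding sequences of these genes, which showed the largest rise and the largest fall, are shown 5′ to 3′ as given in GENCODE vM21 on GRCm38, in full without the stop codon for Cox8a and over the first 300 bases for Uqcrb, with the start codon in capitals.
Cox8a: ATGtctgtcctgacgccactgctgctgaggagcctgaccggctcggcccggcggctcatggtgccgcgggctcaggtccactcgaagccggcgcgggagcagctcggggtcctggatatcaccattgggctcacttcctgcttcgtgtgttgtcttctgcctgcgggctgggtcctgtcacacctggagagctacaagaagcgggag
Uqcrb: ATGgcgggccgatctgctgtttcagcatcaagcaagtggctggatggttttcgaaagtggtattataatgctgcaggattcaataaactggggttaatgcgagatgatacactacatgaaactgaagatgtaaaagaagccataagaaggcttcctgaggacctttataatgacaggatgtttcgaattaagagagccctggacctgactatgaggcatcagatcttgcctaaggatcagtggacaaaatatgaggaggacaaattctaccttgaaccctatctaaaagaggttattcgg
The Cox8a coding sequence has 207 bases and a GC content of 65.2%, and that of Uqcrb has 333 bases and 42.9%. Uqcrb has 3 annotated pseudogenes that match it over at least 150 bases with at least 95% identity, and the 1 of them in the table held 1 count over all 6 libraries. Cox8a has none and overlaps no other annotated gene.

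The other complex IV genes were split. Cox6b1, which faces the intermembrane space at the cytochrome c side, had 17.6 and 9.21 CPM in control, 23 and 25.6 with dexamethasone and 84.1 and 74.2 with EPC-EVs (log2 fold change 1.68 ± 0.19, adjusted p = 5.21e-05). Cox7b had 59 and 38, 49.5 and 40.1, and 84.1 and 78.7 CPM (log2 fold change 0.84 ± 0.18, adjusted p = 0.00305), and Cox7a2 had 11.5 and 11.2, 16.1 and 10.02, and 30.4 and 29.6 CPM (log2 fold change 1.18 ± 0.28, adjusted p = 0.0062), a call lost without dexamethasone replicate 2 (adjusted p = 0.0584). In all 3 the vesicle libraries were highest. Ndufa4 had 45.5 and 43, 45.5 and 48.9, and 78 and 66 CPM (log2 fold change 0.59 ± 0.18, adjusted p = 0.0211), and was not called without dexamethasone replicate 1 (adjusted p = 0.113), dexamethasone replicate 2 (0.0788) or dexamethasone + EPC-EVs replicate 1 (0.0932).

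Cox6c, a small transmembrane subunit, had 157 and 180.2 CPM in control, 159.8 and 174 with dexamethasone and 122 and 115 with EPC-EVs (log2 fold change -0.51 ± 0.14, adjusted p = 0.011), the 1 gene of complex IV called lower against dexamethasone. The call was lost without dexamethasone replicate 1 (adjusted p = 0.0533) or 2 (0.117) and once a trend on GC content was removed (-0.26). Cox4i1, a large subunit that binds the allosteric regulator ATP, had 112 and 113, 132 and 130.1, and 167 and 161 CPM (log2 fold change 0.30 ± 0.13, adjusted p = 0.0876), ordered without overlap but not called. Cox6a1 (log2 fold change -0.33 ± 0.19, adjusted p = 0.197) and the supercomplex factor Cox7a2l (log2 fold change 0.06 ± 0.14, adjusted p = 0.754) were not called either, nor were Cox5a (log2 fold change 0.87 ± 0.33, adjusted p = 0.0546), Cox7c (log2 fold change 0.55 ± 0.20, adjusted p = 0.0515) and Cox5b (log2 fold change -0.15 ± 0.30, adjusted p = 0.716). With GC and length corrected, Cox6a1 (-1.15, adjusted p = 0.00087) and Cox4i1 (-0.44, 0.0275) were the complex IV genes called lower, and Cox5a (0.94, 0.0429) and Cox7c (0.89, 0.00577) were called higher. The FPKM ratio of Cox6c to Cox8a was 0.821 and 1.55 in control, 0.455 and 0.576 with dexamethasone and 0.0494 and 0.0512 with EPC-EVs.

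In the ATP synthase, the F1 head and the c ring rose and most of the peripheral stalk fell. Of the 5 head subunits 4 were called higher. Atp5b had 430.2 and 324 CPM in control, 559.7 and 489 with dexamethasone and 1181 and 1029.5 with EPC-EVs (log2 fold change 1.06 ± 0.12, adjusted p = 5.72e-05), and its partner Atp5a1, the alpha subunit, had 292 and 274, 257 and 288, and 463 and 388 CPM (log2 fold change 0.62 ± 0.13, adjusted p = 0.00331), a call lost without dexamethasone replicate 1 (adjusted p = 0.0718). Atp5d, the delta subunit of the central stalk (chr10:80138632-80145818, plus strand), had 21.2 and 24.4, 47.9 and 39, and 176 and 138 CPM (log2 fold change 1.83 ± 0.18, adjusted p = 1.59e-05). Atp5e, the epsilon subunit, had 5.59 and 8.61, 9.42 and 7.66, and 28.8 and 23.9 CPM (log2 fold change 1.61 ± 0.29, adjusted p = 0.0012), and the gamma subunit Atp5c1, the rotor shaft, had 82.1 and 81.1, 82.5 and 83.7, and 101 and 110.0 CPM (log2 fold change 0.33 ± 0.15, adjusted p = 0.104). With GC and length corrected Atp5c1 was called higher too (0.48, adjusted p = 0.0302). In all 5 both vesicle libraries exceeded the other 4. Atp5d overlaps Cbarp on the other strand.

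The c ring, which turns as protons pass, is built from 1 mature protein encoded by 3 genes, and all 3 were called higher. Atp5g1 had 7.72 and 6.21 CPM in control, 17.7 and 12.1 with dexamethasone and 46.2 and 51.4 with EPC-EVs (log2 fold change 1.70 ± 0.25, adjusted p = 0.000273). Atp5g2 had 12.3 and 3.00, 23.4 and 13.3, and 56.9 and 54.3 CPM (log2 fold change 1.58 ± 0.26, adjusted p = 0.000639). Atp5g3 had 11.8 and 4.2, 14.7 and 9.87, and 28 and 27.8 CPM (log2 fold change 1.16 ± 0.28, adjusted p = 0.00662), a call lost without dexamethasone replicate 2 (adjusted p = 0.0602) or with all 6 libraries in 1 fit (0.06). The vesicle libraries were highest for each of them. The last 75 codons of the 3 genes, which translate to the same residues, are shown 5′ to 3′ without the stop codon (GENCODE vM21 on GRCm38), with capitals at the 57 positions where they are not all alike.
Atp5g1: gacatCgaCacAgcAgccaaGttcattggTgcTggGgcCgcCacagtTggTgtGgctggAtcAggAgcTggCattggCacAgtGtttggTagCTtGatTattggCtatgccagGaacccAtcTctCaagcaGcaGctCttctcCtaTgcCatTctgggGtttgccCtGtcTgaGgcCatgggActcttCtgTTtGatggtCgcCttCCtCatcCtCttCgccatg
Atp5g2: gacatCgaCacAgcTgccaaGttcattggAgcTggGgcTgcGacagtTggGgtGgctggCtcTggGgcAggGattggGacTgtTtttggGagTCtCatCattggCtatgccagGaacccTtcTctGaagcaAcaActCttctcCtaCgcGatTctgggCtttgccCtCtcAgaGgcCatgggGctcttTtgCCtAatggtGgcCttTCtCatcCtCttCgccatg
Atp5g3: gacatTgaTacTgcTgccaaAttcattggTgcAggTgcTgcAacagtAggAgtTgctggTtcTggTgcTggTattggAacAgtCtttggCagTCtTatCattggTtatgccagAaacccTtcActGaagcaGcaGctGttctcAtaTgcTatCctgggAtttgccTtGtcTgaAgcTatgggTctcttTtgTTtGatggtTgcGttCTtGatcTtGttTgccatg
Base identity over this stretch was 84.9% between Atp5g1 and Atp5g2, 80.0% between Atp5g1 and Atp5g3 and 78.7% between Atp5g2 and Atp5g3. The genes lie at chr11:96068852-96075670, minus strand, chr15:102662864-102672352, minus strand and chr2:73908447-73911326, minus strand.

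The peripheral stalk holds the head still while the rotor turns. Its b subunit Atp5f1 (chr3:105942698-105960099, minus strand) had 139 and 135 CPM in control, 104 and 101 with dexamethasone and 54.7 and 48.6 with EPC-EVs (log2 fold change -1.01 ± 0.16, adjusted p = 0.000472). Its d subunit Atp5h had 205 and 206, 192 and 181, and 139.6 and 119.6 CPM (log2 fold change -0.55 ± 0.14, adjusted p = 0.00837), and its coupling factor 6, Atp5j, had 103 and 97.9, 99.2 and 88.8, and 65.5 and 64.8 CPM (log2 fold change -0.55 ± 0.16, adjusted p = 0.0156). In all 3 both vesicle libraries were below the other 4. The calls of Atp5h (adjusted p = 0.0914 and 0.0637) and Atp5j (0.126 and 0.0585) were lost without dexamethasone replicate 1 or 2. Atp5o, which joins the stalk to the head, rose instead, with 33.3 and 32, 52.4 and 34.2, and 106 and 84.4 CPM (log2 fold change 1.12 ± 0.22, adjusted p = 0.00166). The FPKM ratio of Atp5f1 to Atp5b was 0.335 and 0.429 in control, 0.191 and 0.213 with dexamethasone and 0.0478 and 0.0487 with EPC-EVs, and that of Atp5f1 to Atp5o was 2.30 and 2.31, 1.09 and 1.62, and 0.283 and 0.317.

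Of the small membrane subunits, Atp5j2 (f, chr5:145183698-145192062, minus strand) had 29.1 and 26.6 CPM in control, 33.3 and 38.6 with dexamethasone and 15.9 and 13.8 with EPC-EVs (log2 fold change -1.30 ± 0.24, adjusted p = 0.00133), and Atp5l (g) had 45.8 and 35.6, 41.5 and 47, and 90.7 and 94.6 CPM (log2 fold change 1.05 ± 0.17, adjusted p = 0.000534). They moved in opposite directions without overlap. Atp5k (e, log2 fold change -1.80 ± 0.76, adjusted p = 0.079) and Atp5s, a factor that regulates coupling (log2 fold change -1.45 ± 0.68, adjusted p = 0.112), were weakly expressed and not called. Atpif1, the inhibitor that binds the F1 head when the proton gradient collapses, is not a subunit and was not among the 79 genes. It had 212 and 224 CPM in control, 227 and 212 with dexamethasone and 61.2 and 44.7 with EPC-EVs (log2 fold change -2.07 ± 0.17, adjusted p = 5.79e-06). Atp5f1 overlaps Wdr77 and Atp5j overlaps Gabpa on the other strand, Atp5o overlaps a second annotated gene of the same name, and Atp5h and Atp5l have 4 and 8 near-identical pseudogenes, so the counts of these 5 genes are less certain. Gabpa itself had 82.8 and 86.5, 76.3 and 74.1, and 44.6 and 44.7 CPM (log2 fold change -0.77 ± 0.17, adjusted p = 0.00389), and with GC and length corrected it was not called (-0.12, adjusted p = 0.617).

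**Figure D4:**
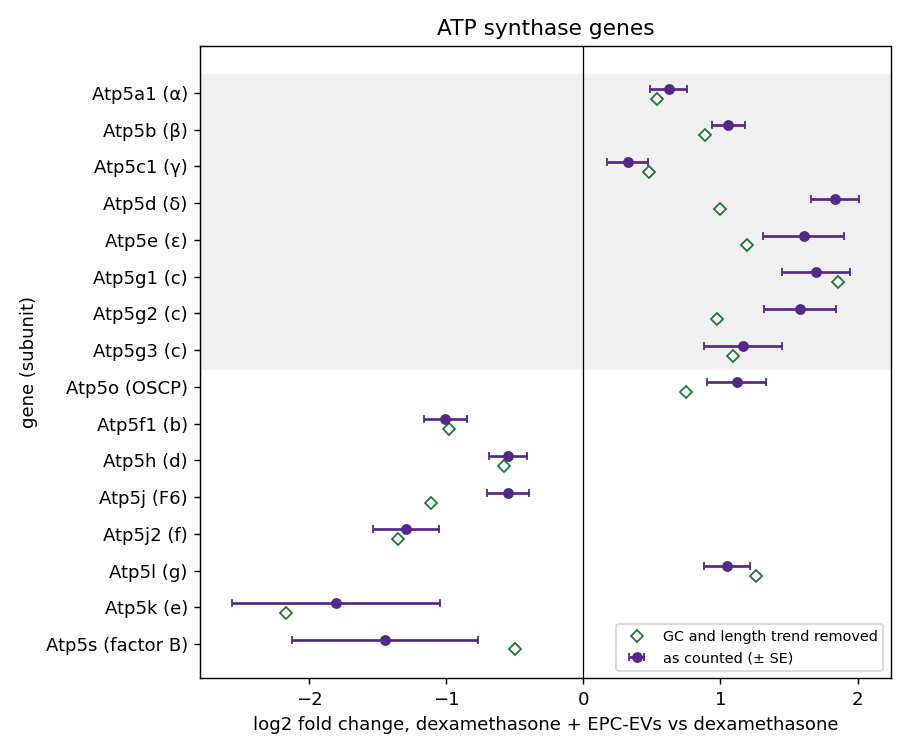
Log2 fold change of the 16 ATP synthase genes between dexamethasone with EPC-EVs and dexamethasone, as counted (filled circles, bars are ± SE from edgeR, n = 2 libraries per group) and with the dependence on GC and transcript length taken out (open diamonds). The shaded band marks the F1 head and c ring genes, which all lie right of 0, and the stalk genes Atp5f1, Atp5h and Atp5j lie left of 0 on both scales. Atp5k and Atp5s were not called.

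Across the complexes, 37 of the 79 genes overlapped another annotated gene and 21 had a near-identical pseudogene. The overlap applied to 15 of the 34 genes called higher, 4 of the 8 called lower and 17 of the 34 not called, and pseudogenes to 8, 4 and 9 of them. The pseudogenes in the table held between 0 and 26 counts per library for any 1 gene.

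The comparison of dexamethasone and EPC-EVs with control asked how far the cells stood from untreated ones. It uses the same vesicle libraries and is not independent of the comparison above. Of 75 genes tested by edgeR, 37 were called higher and 5 lower, beside 19.1% and 17.2% of all 13511 genes, and 42 (56.0%) in all, beside 36.4%. Corrected for GC and length, 27 were called higher and 10 lower (49.3%, beside 25.9% of all genes). Over all 13511 genes, 1620 were then called higher and 1882 lower. Of the 37 rises and 5 falls, 25 and 5 kept their call under this correction. Through all the alternatives, 16 and 2 kept it. In 49 genes both vesicle libraries lay above both control libraries and in 12 below, beside 38.2% and 34.8% of all genes (73% in either direction). The median log2 fold change was 0.73, beside 0.02 over all genes tested. Without dexamethasone + EPC-EVs replicate 1 there were 22 calls, 20 higher and 2 lower (29.3%, beside 25.1% of all genes), and without replicate 2 there were 28, with 2 lower (37.3%, beside 24.6%).

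The 5 largest rises against control were Cox8a (log2 fold change 3.91 ± 0.26, adjusted p = 0.000111), Atp5g2 (log2 fold change 2.81 ± 0.51, adjusted p = 0.00381), Uqcrq (log2 fold change 2.79 ± 0.36, adjusted p = 0.000996), Atp5g1 (log2 fold change 2.78 ± 0.30, adjusted p = 0.000527) and Atp5d (log2 fold change 2.76 ± 0.23, adjusted p = 0.000249). In each of them the dexamethasone libraries lay between the control and the vesicle libraries in the group means. For Atp5g2 the size rests on a low control library: the log2 fold change was 4.22 without control replicate 1 and 2.18 without control replicate 2. That of Uqcrq was 3.38 without control replicate 1. Sdhd (log2 fold change 1.62 ± 0.30, adjusted p = 0.0044) and Sdhc (log2 fold change 0.77 ± 0.24, adjusted p = 0.0364) were called higher against control, and Sdhc was not called without control replicate 2 (adjusted p = 0.0619) or without either library of dexamethasone + EPC-EVs (0.209 and 0.134). Cox5a, a matrix-side subunit of complex IV, had 8.05 and 5.61 CPM in control and 24.3 and 18.1 CPM with EPC-EVs (log2 fold change 1.61 ± 0.40, adjusted p = 0.0143), and lost its call without dexamethasone + EPC-EVs replicate 1 (0.124).

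The 5 falls against control were Uqcrb (log2 fold change -3.03 ± 0.30, adjusted p = 0.000417), Atp5f1 (log2 fold change -1.43 ± 0.20, adjusted p = 0.00126), Atp5j2 (log2 fold change -0.93 ± 0.30, adjusted p = 0.0415), Atp5h (log2 fold change -0.68 ± 0.18, adjusted p = 0.0195) and Atp5j (log2 fold change -0.65 ± 0.20, adjusted p = 0.0321). Uqcrb and Atp5f1 kept their call in the 14 other normalizations, filters, fits, count tools and left-out libraries, though Atp5f1 does not reach a log2 fold change of 1.5 in size. The calls of Atp5h, Atp5j and Atp5j2 were lost without either library of dexamethasone + EPC-EVs, at adjusted p of 0.0657 and 0.212, 0.2 and 0.207, and 0.17 and 0.282, and that of Atp5j2 also without control replicate 1 (0.06), with no filter (0.0583), with the replicate block (0.0649) and by DESeq2 (0.0667). Cox4i1 stood at the threshold (log2 fold change 0.52 ± 0.18, adjusted p = 0.0499), and its call was lost in 9 of 14 alternatives. They were each library of dexamethasone + EPC-EVs left out (0.258 and 0.22), control replicate 2 left out (0.0516), DESeq2 (0.052), DESeq2 size factors in edgeR (0.0538), upper-quartile normalization (0.0742), a mean of at least 10 CPM (0.0559), the replicate block (0.0591) and the GC and length correction, under which Cox4i1 was called lower (-0.62, adjusted p = 0.0482).

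GC content moved with the fold changes over all genes. Across 13544 genes, the log2 fold change between dexamethasone with EPC-EVs and dexamethasone had a Spearman correlation of 0.49 with the GC content of the transcript, and across the 76 respiratory chain genes of 0.19, a description over genes that share the same libraries. In transcripts of 45% to 50% GC the median was -0.11 over all genes and 0.35 over the 21 respiratory chain genes, and at 50% to 55% it was 0.25 and 0.98 over 25. At 40% to 45% it was -0.49 and 0.32 over 10, and at 55% to 60% it was 0.62 and 0.64 over 19. The 1 respiratory chain gene over 60%, Ndufa13, lay at -0.27, beside 1.07 over all genes. The median transcript GC was 52.3% for genes called higher, 50.03% for genes called lower and 49.9% for the others. With this dependence on GC and length taken out of each library by a smooth curve, 33 genes rose and 12 fell (59.2%, beside 31.5% of all genes). Their median was 0.52. Over all 13556 genes, 2217 then rose and 2051 fell. Of the respiratory chain calls, 28 of the 34 rises and 7 of the 8 falls were kept. Cox8a went from 2.84 to 2.06 and Uqcrb from -2.70 to -1.79, whereas Uqcrc1 went to 0.43 and lost its call (adjusted p = 0.0562) and Cox7b went from 0.84 to 1.71. The fold also moved by over 1.5 times for Ndufv1 (0.82), Uqcr11 (1.17), Ndufa4 (1.23), Atp5d (0.997) and Atp5g2 (0.98), which kept their calls. Against control it moved as far for Cox8a (2.83), Atp5g2 (1.92), Atp5d (1.44), Uqcrb (-1.89) and Atp5j (-1.56), among others. Uqcrc1 (0.16) and Sdhb (0.38) were among those that lost their call there.

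**Figure D5:**
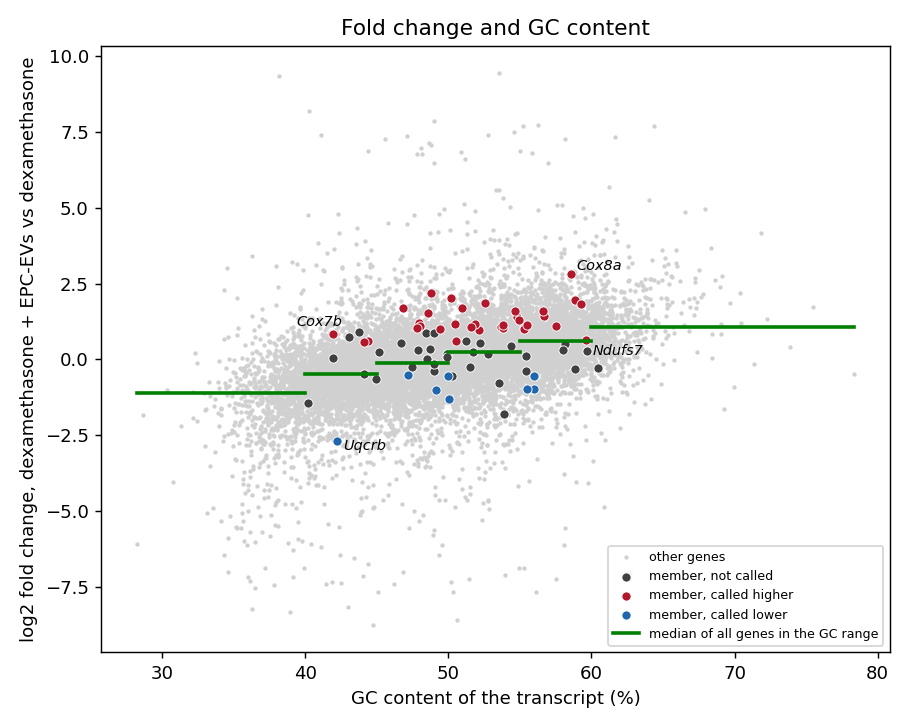
Log2 fold change between dexamethasone with EPC-EVs and dexamethasone (vertical axis) against the GC content of the transcript in percent (horizontal axis), with 1 point per gene, respiratory chain genes in colour by their call and green bars at the median of all genes in each GC range. The green bars rise from left to right, from -1.09 under 40% to 1.07 over 60% GC.

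Promoters of these genes are known to carry sites for the nuclear respiratory factors NRF1 and NRF2 (GABP), which bind many genes of oxidative phosphorylation. In RefSeq promoters (GRCm38.p6, 250 bases before to 50 after the start), 64 of the 79 genes were matched by symbol or else by Ensembl identifier. Each motif was searched on both strands. The NRF1 motif (GCGC at both ends of 2 free bases) was found in 28.1% of the matched genes and 7.0% of all genes, the GABP motif CCGGAAG in 25% and 9.93%, the Sp1 motif GGGCGG in 39.1% and 38.2%, the YY1 motif AAGATGGCG in 10.9% and 1.64%, and the ERRa motif TCAAGGTCA in 3.13% and 0.466%. The glucocorticoid response element (GNACA and TGTNC with 3 free bases between them) was found in 0 of 64 and in 0.537% of all genes. Among genes called higher against dexamethasone, 5 of 30 with a promoter held the NRF1 motif and 9 the GABP motif, among those called lower 1 and 2 of 5, and among the others 12 and 5 of 27. The 250 bases before the start are shown for Sdhd (chr9:50603850-50604099, minus strand), which rose, and Atp5h (chr11:115419920-115420169, minus strand), which fell, since both motifs occur in each of them, with the matches in capitals.
Sdhd: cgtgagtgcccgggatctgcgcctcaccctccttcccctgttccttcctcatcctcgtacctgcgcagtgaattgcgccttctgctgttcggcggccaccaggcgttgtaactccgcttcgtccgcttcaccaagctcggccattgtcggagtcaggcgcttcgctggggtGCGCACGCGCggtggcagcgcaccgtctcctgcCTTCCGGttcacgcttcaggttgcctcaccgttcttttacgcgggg
Atp5h: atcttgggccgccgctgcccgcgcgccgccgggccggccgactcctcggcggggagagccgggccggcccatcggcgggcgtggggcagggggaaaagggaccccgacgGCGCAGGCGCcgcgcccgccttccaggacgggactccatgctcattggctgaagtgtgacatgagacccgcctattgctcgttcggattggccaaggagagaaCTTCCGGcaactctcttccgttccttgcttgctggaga
A match describes letters only and is not a measured site.

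Other genes of the pathway were read from lists, whose counts stand beside 20.9% of all genes called higher and 18.9% lower in this comparison. Counts with GC corrected stand beside 2217 genes called higher and 2051 lower of all 13556 tested. The subunits encoded by the mitochondrial genome went against the nuclear ones: of 11 tested against dexamethasone, 10 fell and 0 rose, at a median log2 fold change of -3.94 (-2.28 with 8 lower after the GC trend was removed), and mt-Co1, the catalytic subunit of complex IV, went from 27127 and 29322 CPM with dexamethasone to 3609.9 and 5188 CPM with EPC-EVs (log2 fold change -2.70 ± 0.16, adjusted p = 7.99e-07). Of 16 import genes tested, 9 were called higher and 0 lower (median 0.84), led by the channel Tomm40, with 6.9 and 3.6 CPM in control, 8.84 and 10.8 with dexamethasone and 52.7 and 47.5 with EPC-EVs (log2 fold change 2.33 ± 0.24, adjusted p = 2.64e-05), and the inner membrane receptor Timm50 (log2 fold change 2.33 ± 0.38, adjusted p = 0.000574). Of 77 mitochondrial ribosomal protein genes tested, 21 were called higher and 4 lower (median 0.31), or 17 and 5 with GC corrected. Of 14 tricarboxylic acid cycle genes, 6 were called higher and 2 lower (median 0.29), and 3 and 1 with GC corrected (median 0.13), with malate dehydrogenase Mdh2 higher (log2 fold change 0.95 ± 0.15, adjusted p = 0.000407) and the succinyl-CoA ligase subunit Sucla2 lower (log2 fold change -1.24 ± 0.19, adjusted p = 0.000399).

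In the lists of electron carriers and assembly factors, calls in either direction were no more frequent than over all genes tested (20.9% higher, 18.9% lower). Among 15 genes of cytochrome c, cytochrome c1 and ubiquinone synthesis, 3 were called higher and 2 lower. Cyc1, the cytochrome c1 of complex III, had 8.87 and 3.00 CPM in control, 10.7 and 8.1 with dexamethasone and 42 and 47.4 with EPC-EVs (log2 fold change 2.23 ± 0.25, adjusted p = 5.21e-05), while Cycs, cytochrome c itself, had 97.6 and 68.3, 113 and 103, and 74.5 and 62.2 CPM (log2 fold change -0.68 ± 0.16, adjusted p = 0.00558). The fall of Cycs turned to 0.021 after the GC trend was removed and was not called without dexamethasone replicate 1 (adjusted p = 0.0713). Of the assembly factors, 1 of 15 rose and 1 fell for complex I, 2 of 14 rose and 1 fell for complexes II, III and V, and 1 of 21 rose and 1 fell for complex IV. The one that fell for complex IV was Cox20, a chaperone of the Cox2 subunit, with 43.9 and 50.3 CPM in control, 45.2 and 41.8 with dexamethasone and 1.88 and 2.85 with EPC-EVs (log2 fold change -4.21 ± 0.31, adjusted p = 2.93e-06). Of 12 regulators of mitochondrial genes, Pprc1, Nrf1, Esrra and Polrmt were called higher and Gabpa, Gabpb1 and Yy1 lower (median -0.28), and after the GC trend was removed 1 was called higher and 2 lower. Esrra, an orphan nuclear receptor, had 5.75 and 0.601, 11 and 10.9, and 31.7 and 29.8 CPM (log2 fold change 1.47 ± 0.26, adjusted p = 0.000928), and was not called after that correction (0.47, adjusted p = 0.189) or with all 6 libraries in 1 fit (0.0597).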

How the data were processed

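RNA was sequenced in 6 libraries of MC3T3-E1 Subclone 14 cells, 2 for each of 3 groups. The authors aligned paired reads to GRCm38 with HISAT2 in its RF strand setting, counted them per gene with HTSeq 0.6.1, and deposited these raw counts. They also deposited FPKM values per gene, normalised to gene length and library, and a StringTie transcript table. The strand option of the counting is not given in the sources used here.

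Counts were tested with edgeR 4.0.16 in R 4.3.3 (TMM, filterByExpr, robust quasi-likelihood test), using for each comparison its own 4 libraries, with Benjamini-Hochberg adjustment over all genes tested. The threshold for a call was an adjusted p under 0.05. The CPM printed are per TMM-scaled library size. Fold changes are log2 with a standard error. FPKM were tested with limma 3.58.1 on log2(FPKM + 1). The alternatives were DESeq2 1.42.0, other normalizations and filters, all 6 libraries in 1 fit, a replicate block, a loess curve of GC and length taken out of each library (span 0.4), stricter thresholds, and each library left out. The edgeR procedure was tested on simulated data with known changes. Annotation was GENCODE vM21 on GRCm38, which matched 21646 of 21686 genes, and pseudogenes were searched with BLAST+ 2.17.0.

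The genes named in full were the complex I core (the values of 1 gene are not reported here), complexes II and III, the complex IV paralogues, the F1 and c subunits, and for every comparison the 5 top rises and falls that were called, averaged 10 CPM or more and had no overlap between groups. Other genes given by name, such as Ndufb11, Ndufa9, Ndufa10, Cox5a, Cox6c, Atp5h, Atp5j, Atp5l and Atp5o, and those of the other lists, were chosen after their values were seen. The genes and lists were chosen with earlier results of these data known.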

Additional observations from a re-analysis of the deposited data

How the results depend on the processing

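The comparisons with EPC-EVs kept their direction and, for most counts, stayed within 1.5 times under the alternatives. Over all genes, the calls between dexamethasone and control went from 7 to 1 with the mitochondrially encoded genes left out, 248 with no filter, 43 with the replicate block, 12 with GC and length corrected and 130 with DESeq2. Of the respiratory chain genes, 1 was called in that comparison with no filter, and it was higher (Cox8a, adjusted p = 0.0256). Their median there was 0.056 with GC and length corrected. At the study's own threshold (log2 fold change beyond 1.5, p under 0.05 with no adjustment), 13 were called against dexamethasone (11 higher, 2 lower, beside 14.2% of all genes) and 22 against control (21 higher, 1 lower, beside 20.7%), and at an adjusted p under 0.01 19 were called against control, beside 19.5%. The count lower against control was 8 of 75 with upper-quartile normalization, beside 2484 of all 13511 genes. It was 8 of 65 with a mean of at least 10 CPM (2160 of 9216) and 8 of 75 with all 6 libraries in 1 fit (2671 of 13485). With GC and length corrected it was 10 of 75, beside 1882 of 13511, and the median was 0.46.

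With 1 library left out at a time, with the spread then taken from the pair of the other group, the calls over all genes ranged from 9 to 2200 for dexamethasone against control (2200 without control replicate 1), from 3250 to 4813 for EPC-EVs against dexamethasone (3250 without dexamethasone replicate 2) and from 3375 to 6231 against control. Of the respiratory chain genes, 0 to 10 were called between dexamethasone and control (0 to 8 higher, 0 to 2 lower), 31 to 44 against dexamethasone (26 to 36 higher, 5 to 9 lower, with 5 lower without either dexamethasone library) and 22 to 48 against control (20 to 41 higher, 2 to 7 lower). Their medians ranged from 0.16 to 0.25, from 0.48 to 0.68 and from 0.70 to 0.95. The share of them called was below that of all genes in every such fit between dexamethasone and control. In the fits with EPC-EVs it was above that of all genes, but only narrowly against control without dexamethasone + EPC-EVs replicate 1.

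Against dexamethasone the sign turned for Sdha with upper-quartile normalization (-0.025), library totals (-0.029), a mean of at least 10 CPM (-0.024) and in its range over left-out libraries (-0.018 to 0.085), and over left-out libraries also for Ndufv2 (-0.025 to 0.16), Cox7a2l (-0.026 to 0.18) and Uqcrh (-0.0025 to 0.40). With GC and length corrected it turned for Ndufs7 (-0.23), Cox4i1 (-0.44) and Cycs (0.021), and against control for Ndufs7 (-0.25) and Cox4i1 (-0.62). Of 85 gene results, 46 kept direction and side of the threshold throughout, and of 1185 values over all alternatives 76 lost the call and 17 gained it in the same direction, and 12 turned sign, with or without a call. The cause of these changes was not tested.

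The 2 replicate numbers only name samples. Deviations from the group means of libraries with the same number had correlations of 0.06, 0.01 and 0.007 over 13485 genes, and the replicate block gave 0, 42 (34 higher, 8 lower) and 41 (37 higher, 4 lower) calls among the respiratory chain genes, beside 0.334%, 39.6% and 34.6% of all genes. With 2 libraries a group and lower depth without EPC-EVs, genes at a few CPM, such as Ndufc2, had wide errors.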

Other observations

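The transcript table, as used here, held 4 of the 79 genes, all on chromosome 1. Summed over annotated transcripts, Ndufa10 had an FPKM of 13.1 and 14.4 in control, 10.97 and 13.7 with dexamethasone and 23.6 and 28.6 with dexamethasone and EPC-EVs. The vesicle libraries were thus highest in the sum, as in the gene counts. In dexamethasone + EPC-EVs replicate 2 the sum included 15.7 from 1 transcript that had at most 1e-06 in every other library. The longest annotated transcript had 8.15 and 3.92 in control, 9.04 and 9.14 with dexamethasone and 19.4 and 8.92 with EPC-EVs. Cox5b, a nuclear subunit that binds zinc in complex IV, had 10.9 and 9.29, 16.3 and 15.3, and 12.8 and 16.8, and Ndufb3, of the membrane arm of complex I, had 9.9 and 9.95, 14.9 and 12.1, and 9.26 and 10.0 in the same order. Ndufs1 had 3.99 and 6.56, 12.2 and 7.44, and 10.9 and 8.05.

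The same table held assembled transcripts of 1 exon at 3 of these genes that carry no annotated transcript name. Their summed FPKM was 17.0 and 55.3 in control, 9.795 and 18 with dexamethasone and 6.09 and 9.35 with dexamethasone and EPC-EVs. At Ndufa10 they reached 39.3 in control replicate 2 against 5.95 in replicate 1, so the control libraries lay far apart. What these transcripts are was not tested.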
